A study of Drosophila melanogaster with 2 samples.

Results

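Distal peaks of ranshi-eGFP were taken as the records of the deposited conservative list, thresholded by IDR (a method that keeps peaks ranked alike in repeated inputs), whose summit lay more than 5000 bp from the closest annotated transcript start, whether the summit fell in an intron or between genes. The rule left 459 of 2984 conservative peaks (15.4%, exact 95% interval 14.1 to 16.7%) and used position only, not a measured level. The other 2525 peaks, called near peaks here, had their summit within 5000 bp of a start. The data came from chromatin immunoprecipitation with sequencing (ChIP-seq), in which an antibody pulls down sonicated chromatin and the recovered DNA is sequenced. Whole Drosophila melanogaster embryos aged 0 to 24 h from the ranshi-GFP strain, which carries an insertion giving a ranshi protein fused to eGFP, formed 1 group of 2 biological replicates, and the pull-down used an antibody against GFP. Embryos of all stages and all tissues were mixed, so no value below belongs to 1 cell type, and the labels name a possible control experiment that was not analysed here.

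ranshi belongs to the ZAD family, a large group of insect zinc finger proteins that carry a zinc-finger associated domain at the amino end and DNA-binding C2H2 fingers towards the carboxyl end. Well-studied members of the family bind promoters or the boundaries between chromatin domains. In flies, sequence far from any start holds many of the enhancers that drive developmental genes, and a large share of those enhancers lie inside the long first introns of the genes they serve.

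A 7 base word, CACTGAG, was found near the summits of 81 of the 459 distal peaks (17.6%, interval 14.3 to 21.4%) in the window of 150 bp to each side. In windows of the same size 700 bp away it was found in 29 of 918 (3.16%), an odds ratio of 6.56 (95% interval 4.16 to 10.6, exact Fisher p = 2.01e-19). The word was the 7-mer held by the largest number of the leading 9 base words of the near peaks, 6 of 20, a choice made with the data in view. It lay to the sides of the summit, reading towards it, and 9 distal peaks had a copy on each side of the summit that faced one on the other side. This was the less common arrangement, since 72 of the 81 peaks had the word on 1 side of the summit only. The stretches between and including the facing copies are shown for the 7 such peaks given here, to show what a facing pair looked like. Bases are on the plus strand of dm6 from the RefSeq assembly. Capitals mark the word (CACTGAG) and its reverse complement (CTCAGTG), and the sequence name gives the closest or host gene.
Doc2, intergenic, 3L:9025799-9025986 (+): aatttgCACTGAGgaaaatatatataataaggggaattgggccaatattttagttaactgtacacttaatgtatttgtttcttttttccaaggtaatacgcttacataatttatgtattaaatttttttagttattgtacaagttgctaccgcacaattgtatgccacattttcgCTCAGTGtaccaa
lncRNA:CR44711, intergenic, X:21593993-21594174 (+): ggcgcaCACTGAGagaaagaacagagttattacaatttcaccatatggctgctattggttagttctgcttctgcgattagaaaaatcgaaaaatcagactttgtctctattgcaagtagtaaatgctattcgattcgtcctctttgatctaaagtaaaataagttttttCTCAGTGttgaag
gukh, intron, 3R:18995788-18995978 (+): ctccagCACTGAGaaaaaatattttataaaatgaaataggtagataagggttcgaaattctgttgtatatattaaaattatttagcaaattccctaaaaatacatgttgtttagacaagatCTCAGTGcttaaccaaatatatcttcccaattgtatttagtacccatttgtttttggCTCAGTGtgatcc
CG15282, intergenic, 2L:14701611-14701774 (+): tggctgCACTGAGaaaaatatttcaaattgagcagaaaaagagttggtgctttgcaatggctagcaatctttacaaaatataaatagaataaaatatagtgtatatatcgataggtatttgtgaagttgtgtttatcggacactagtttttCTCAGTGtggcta
Snoo, intron, 2L:7916432-7916599 (+): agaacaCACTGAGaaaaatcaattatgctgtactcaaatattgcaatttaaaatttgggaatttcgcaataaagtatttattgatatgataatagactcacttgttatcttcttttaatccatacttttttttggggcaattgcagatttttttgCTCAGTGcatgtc
Chsy, intergenic, X:15599786-15599965 (+): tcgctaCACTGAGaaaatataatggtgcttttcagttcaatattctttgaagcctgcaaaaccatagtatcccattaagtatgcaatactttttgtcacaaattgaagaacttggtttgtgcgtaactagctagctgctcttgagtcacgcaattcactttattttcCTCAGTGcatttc
kirre, intron, X:3025632-3025797 (+): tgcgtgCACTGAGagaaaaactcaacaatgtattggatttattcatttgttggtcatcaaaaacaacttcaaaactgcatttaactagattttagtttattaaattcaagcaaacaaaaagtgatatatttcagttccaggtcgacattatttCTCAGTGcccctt

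Single copies of the word in other distal peaks are shown as 30 base stretches written in the direction of the word, with the word in capitals. The bases that follow it were also alike in most copies, though not in all. The copy in Efa6 (signal 199), not shown, was followed by other bases. The strand is given after the coordinates, and the peaks lie in introns of the named gene unless marked otherwise.
CG6959, 3R:11849894-11849923 (-): tctatgcaggCACTGAGagaaaaaaagtgc
tRNA:Ile-TAT-1-1, intergenic, 3L:762580-762609 (-): taagtcaaggCACTGAGagaaataatgcac
CG43759, X:19018183-19018212 (+): tgtacaagtgCACTGAGagaaataccacct
Fas3, 2L:18325212-18325241 (+): ataagaagcaCACTGAGaaaaaccagcttt
Myo10A, X:10936854-10936883 (-): acatgtcataCACTGAGcgaagtaaagact
pnt, 3R:23326402-23326431 (+): gtcgcaaatgCACTGAGagaaaatagtagt
Among the 91 copies in distal peaks, the base before the word was G in 59.3% and A in 37.4%, and the base before that was T in 65.9%. The 8th base, counted from the first base of the word, was A in 65.9%, and the 9th was G in 54.9% or A in 37.4%. The 10th, 11th and 12th were A in 92.3%, 89.0% and 86.8%. Among the 235 copies in near peaks the same 3 positions held A in 74.0%, 80.4% and 72.3%, so the run of A after the word was present in both classes and was not tested for a difference.

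Of the 15 highest distal peaks, 1 carried the word within 150 bp of the summit and 10 carried the shorter core CACTG, as did 4 of the 6 highest. Sequences of 4 of the 6 highest, those given here, are shown with 100 bases to each side of the summit, with that core and its reverse complement CAGTG in capitals, because they show how different the strongest distal summits were. The peak in Gug, which encodes the Atrophin corepressor, held 2 facing copies of the core and the peak near lncRNA:CR44603 held 1, while the other 2 held none in this window.
Gug, 3L:8458224-8458424 (+): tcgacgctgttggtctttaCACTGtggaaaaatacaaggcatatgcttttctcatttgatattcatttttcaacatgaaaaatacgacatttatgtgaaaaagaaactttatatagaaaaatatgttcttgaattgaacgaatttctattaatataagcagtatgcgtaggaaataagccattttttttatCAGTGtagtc
lncRNA:CR44603, intergenic, 2L:1632727-1632927 (+): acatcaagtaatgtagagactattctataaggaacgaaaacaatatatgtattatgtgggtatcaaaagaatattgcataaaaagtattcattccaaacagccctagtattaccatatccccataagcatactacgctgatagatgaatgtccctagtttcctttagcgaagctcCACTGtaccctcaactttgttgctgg
CG32486, 3L:3060695-3060895 (+): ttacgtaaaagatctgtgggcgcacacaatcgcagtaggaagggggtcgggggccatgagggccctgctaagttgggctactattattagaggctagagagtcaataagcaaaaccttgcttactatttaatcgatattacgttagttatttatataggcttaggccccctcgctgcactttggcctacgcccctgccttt
tRNA:Ile-TAT-1-2, intergenic, 3L:781242-781442 (+): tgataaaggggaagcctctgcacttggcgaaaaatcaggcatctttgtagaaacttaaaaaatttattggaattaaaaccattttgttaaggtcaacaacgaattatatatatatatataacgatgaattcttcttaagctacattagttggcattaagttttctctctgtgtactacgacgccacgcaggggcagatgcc

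Copies of the 7 base word pointed at the summit. In distal peaks 48 copies lay to the left of the summit, of which 45 (93.8%) were on the plus strand, and 43 lay to the right, of which 42 (97.7%) were on the minus strand. Thus 87 of 91 copies (95.6%) read towards the summit, against 193 of 235 (82.1%) in near peaks, 72.4% in peaks within 500 bp of a start and 87.8% in peaks at 500 to 5000 bp. The median distance of a copy from the summit was 75 bp (quartiles 53 and 91), and 19 copies lay within 50 bp. Each of the 9 peaks with copies on both sides had 1 facing pair, with a median spacing of 155 bp (116 to 172), and there were 0 back-to-back pairs. The peak in gukh had 3 copies, which also made 1 pair in the same direction. Because the orientation was noticed in these peaks, these counts are a description with no test.

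**Figure D1:**
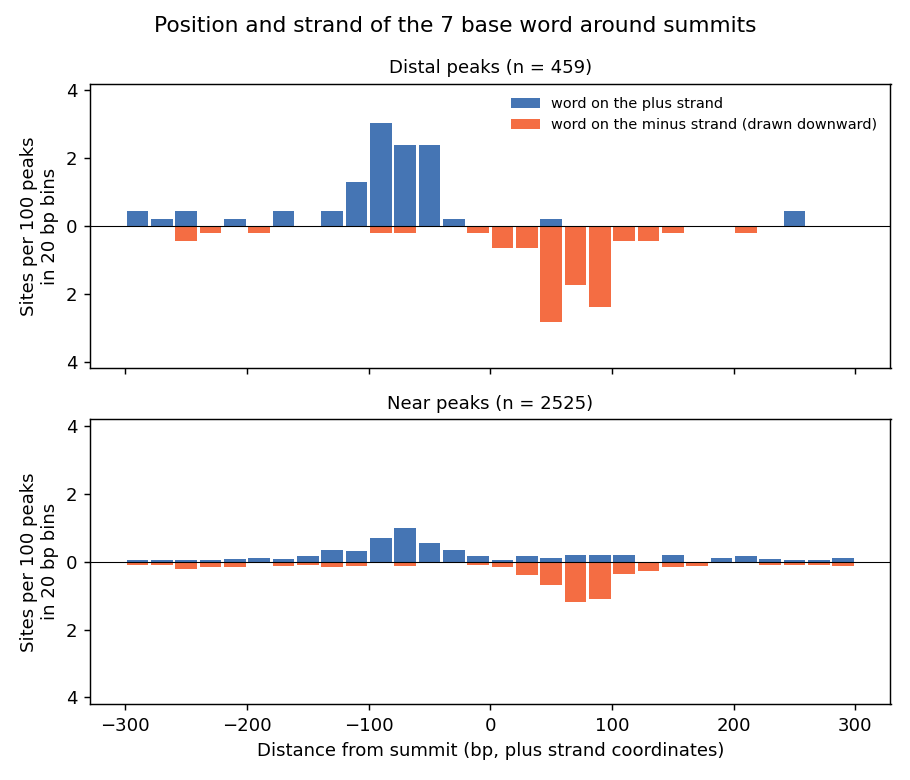
Copies of the 7 base word per 100 peaks in 20 bp bins around the summit (distance in bp, plus strand coordinates), for 459 distal peaks above and 2525 near peaks below; copies on the plus strand are drawn upward and those on the minus strand downward. Plus strand copies gathered left of the summit and minus strand copies right of it, with 87 of 91 distal copies within 150 bp reading towards the summit.

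The same arrangement was then counted in the genome sequence without regard to peaks. Adjacent copies of the word whose centres lay 100 to 250 bp apart numbered 365 in the assembled arms. Of the 94 facing pairs more than 5000 bp from a start, 9 (9.57%, interval 4.47 to 17.4%) spanned a conservative summit and 31 (33.0%) spanned the summit of any record in the ranked list behind it. In the ranked list 6 of 27 back-to-back pairs (22.2%) and 13 of 49 pairs in the same direction (26.5%) also spanned a record's summit. Of these 76 distal pairs in the other orientations, 0 spanned a conservative summit, which allows a share of up to 3.95%. Near starts 18 of 84 facing pairs (21.4%) spanned one, as did 2 of 80 pairs in the same direction (2.50%) and 0 of 31 back to back. Most facing pairs in distal sequence therefore had no conservative peak between them, and these counts too are a description. A facing pair that spans a conservative summit is the arrangement already noticed in the peaks above. The counts at conservative summits are therefore not independent of it.

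The 7 base word was more common in distal than in near peaks, and within the distal peaks more common beyond 10000 bp. It was found in 215 of 2525 near peaks (8.51%, interval 7.46 to 9.67%), an odds ratio of 2.30 for distal against near (1.72 to 3.06, exact Fisher test, Benjamini-Hochberg adjusted p over 9 comparisons 4.85e-08). Against peaks at 500 to 5000 bp alone, which held it in 11.9%, the odds ratio was 1.58 (1.16 to 2.16, adjusted exact p = 0.00774). By distance the share was 5.89% within 500 bp, 11.9% at 500 to 5000 bp, 14.2% at 5000 to 10000 bp, 22.4% at 10000 to 20000 bp and 22.4% beyond 20000 bp. Within the distal peaks, 43 of 192 beyond 10000 bp and 38 of 267 closer than that held it, an odds ratio of 1.74 (1.04 to 2.90, exact Fisher p = 0.0258, unadjusted). The word was in 16.3% of the 646 distal peaks of replicate 1 and in 10.8% of the 352 of replicate 2, against 2.94% and 3.27% of their own windows 700 bp away. In distal candidates, the records of the ranked list that overlap no thresholded peak of the series, it was in 4.06%. Peaks are not replicates, neighbouring peaks share sequence, and these p-values and intervals cover counting error only.

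**Figure D2:**
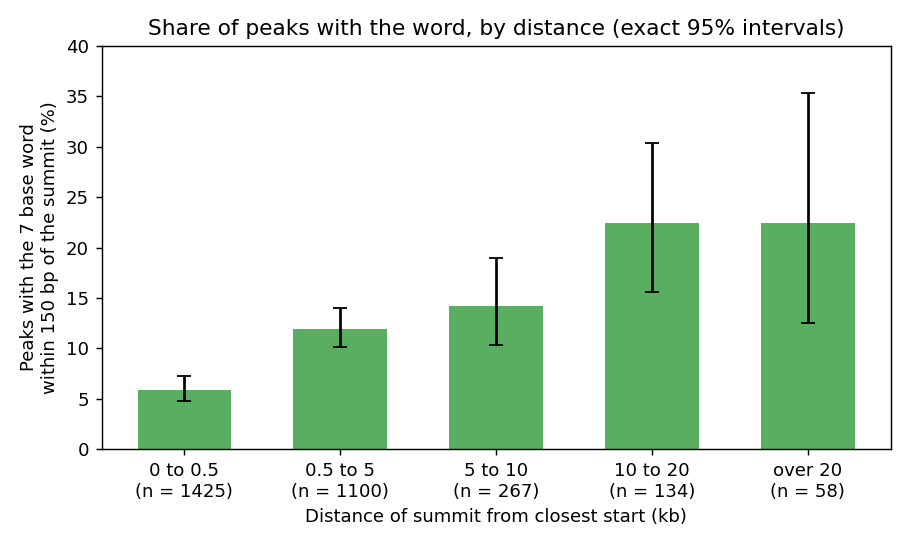
Share of conservative peaks with the 7 base word within 150 bp of the summit (%), by distance of the summit from the closest start (kb), with exact 95% intervals. The share was 5.89% of 1425 peaks within 0.5 kb and 22.4% of 58 peaks beyond 20 kb, where the interval ran from 12.5 to 35.3%.

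The 9 base words that led at near summits were tested in the distal peaks, which had no part in choosing them. At near summits 1339 of 33283 words (4.02%) were more frequent than in windows 700 bp away at an adjusted p under 0.05, and the 20 of smallest p were carried over. In distal peaks 14 of these 20 were again more frequent within 150 bp of the summit and 0 less frequent (exact Fisher test, adjusted over the 20). Within 50 bp 6 of the 20 were more frequent. Many of the words overlap one another, so the 14 are not 14 separate sites. Of the 20, 6 hold CACTGAG and 9 hold CACTG, and others, such as TCTCTCAGT, are the same stretch shifted by a few bases. TGCACTGAG was found at 38 distal summits (8.28%) against 3 of 918 flanking windows (0.327%, adjusted exact p = 1.82e-14), and CACTGAGAG at 35 (7.63%) against 0.436% (adjusted exact p = 1.03e-12). CCACTGTGC, the first word of the near peaks, was at 32 distal summits (6.97%) against 1.09% (adjusted exact p = 2.37e-08) and at 5.15% of near summits, and that difference between the classes did not pass (odds ratio 1.38, 0.895 to 2.08, adjusted exact p = 0.151). The 6 words that did not pass in distal peaks included promoter elements. TATCGATAG, which holds the binding site of the promoter factor DREF, was at 1 distal summit (0.218%) and at 3.72% of near summits. GGTCACACT, the core promoter element called Motif 1, was at 2 distal summits (0.436%) and at 3.21% of near summits. The words were chosen for being frequent at near summits, which favours higher near shares. Distal and near shares of these promoter words were not compared by a test. Within 50 bp GGTCACACT was at 0.436% of both distal and near summits. The DREF site TATCGATA was there at 0.436% and 1.98%, which did not pass (odds ratio 0.217, adjusted exact p = 0.124).

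The shorter core CACTG was within 150 bp of 338 distal summits (73.6%) and of 39.3% of the windows 700 bp away (odds ratio 4.31, 3.35 to 5.56, exact p = 4.86e-34). Near peaks held it in 65.8%, which was lower (odds ratio 1.45, 1.16 to 1.83, adjusted exact p = 0.00177), but the difference was not past the threshold against peaks at 500 to 5000 bp (odds ratio 1.22, adjusted exact p = 0.202) or in replicate 2 alone (1.14, adjusted exact p = 0.359), and within 50 bp of the summit it had the opposite direction (0.893, adjusted exact p = 0.463). Its 589 copies lay a median 80 bp from the distal summit, and 152 distal peaks (33.1%) had a copy on both sides, against 20.4% of near peaks. Orientation was weaker for the core, with 60.1% of distal copies reading towards the summit, a count that includes the copies inside the 7 base word. In near peaks the share was 50.2%. Distal peaks with the 7 base word had a median signal of 112, a mean G+C of 30.8% ± 6.78 (SD, n = 81) and a peak of replicate 2 in 46.9%. For the 378 without it these values were 117, 32.7% ± 9.05 and 51.1%.

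A panel of 20 short motifs was searched on both strands within 50 bp of the summit and in windows of that size 300 bp away. In distal peaks 4 were more frequent at the summit and 5 less frequent (exact Fisher test, adjusted over the 20). The core CACTG was in the panel and did not pass within 50 bp. It was at 18.7% of distal summits against 15.4% of the windows (odds ratio 1.27, adjusted exact p = 0.224). TATAAA, the TATA box, was at 22.2% of distal summits against 7.84% (odds ratio 3.35, adjusted exact p = 5.43e-12), GATAA, read by GATA factors, at 23.5% against 15.5% (1.68, adjusted exact p = 0.00179), TAATTA, the homeodomain core, at 9.59% against 5.01% (2.01, adjusted exact p = 0.00676) and TTGCATA of the insulator protein Su(Hw) at 4.79% against 2.18% (2.26, adjusted exact p = 0.0261). Lower at the summit were GAGAG of GAGA factor, GCCAT of Pleiohomeotic, the Zeste site, the CTCF core AGGNGGC and the E-box CAGCTG, the last at 1.09% against 4.90% (0.214, adjusted exact p = 0.00119). The motifs that were more frequent are made mostly of A and T, and the summits were poorer in G+C than the windows, so the part of base composition in these counts was not tested. In windows of 150 bp to each side 2 of the 20 were more frequent and 1 less frequent, and in the list of replicate 2 alone 1 was more frequent, the TATA box (1.92, adjusted exact p = 0.00865), and 0 less. The Su(Hw) motif also did not pass in the larger list (1.47, adjusted exact p = 0.112) or in the list of replicate 1 (1.68, adjusted exact p = 0.0992). Between distal and near summits only CGATA, the core of the BEAF-32 site, differed after adjustment, at 9.59% of distal and 15% of near summits (odds ratio 0.599, 0.420 to 0.836, adjusted exact p = 0.0345). CGATA also lies within the DREF site TATCGATA, and the 2 were not separated. A match is a run of letters and not a shown binding site.

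Distal summits sat in a short dip of base composition. Mean G+C within 50 bp was 32.3% ± 8.71 (SD, n = 459) at distal summits, 33.5% ± 9.90 (n = 2525) at near summits, 44.7% ± 8.83 in the windows 300 bp from distal summits and 46.3% ± 9.22 in distal candidates outside the thresholded lists. In 21 bp windows the mean at distal summits was 32.3% ± 0.588 (standard error), against 45.7% and 46.4% at 160 bp to the left and right and 42.0% and 41.8% at 500 bp. Near summits went from 32.6% at the centre to 42.3% and 43% at 160 bp and 44.1% and 44.2% at 500 bp. The share of summits below the conservative median of G+C did not differ between distal (51.2%) and near peaks (48.2%) beyond counting error (odds ratio 1.13, 0.919 to 1.38, adjusted exact p = 0.243). This depended on the setting, since distal peaks were lower in G+C in the larger list (1.45, adjusted exact p = 9.97e-07) while the ratio was 0.828 in windows of 100 bp to each side (adjusted exact p = 0.0869).

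**Figure D3:**
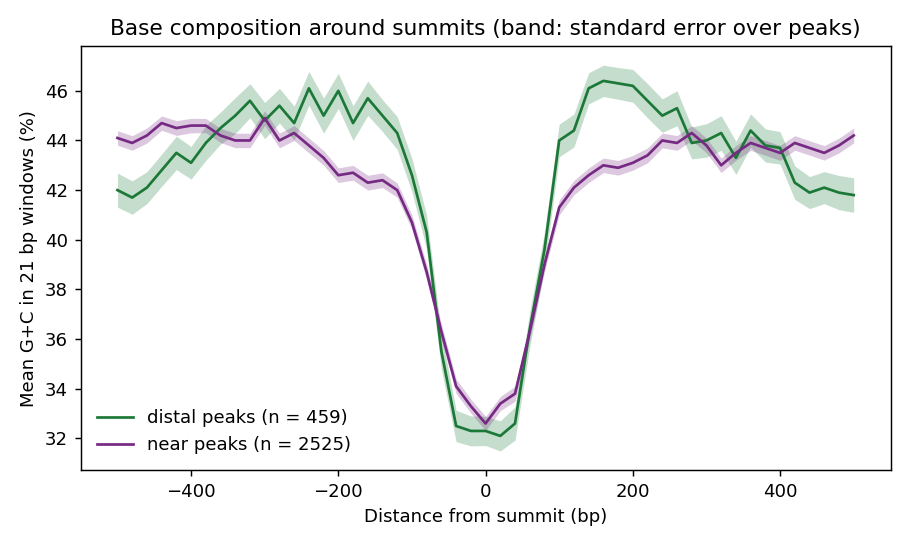
Mean G+C (%) in 21 bp windows against distance from the summit (bp) for 459 distal and 2525 near peaks, with bands of 1 standard error over peaks. Both classes dipped to between 32.3 and 32.6% at the summit, and distal peaks were higher at 160 bp (45.7 and 46.4%) than near peaks (42.3 and 43%).

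Distal sequence held fewer peaks than its length or its candidates. The assembled arms have 54.0 of 134 Mb (40.3%) more than 5000 bp from a start, and there were 8.51 distal peaks per distal Mb against 31.6 near peaks per near Mb. Among 83734 candidate records outside the thresholded lists 30.9% were distal, and the odds ratio for conservative peaks against them was 0.407 (0.368 to 0.451, exact Fisher p = 3.62e-82). The same ratio was 0.314 in the list of replicate 1 alone, where 646 of 3582 peaks were distal, and 0.405 in that of replicate 2, where 352 of 3149 were. Of the 459 peaks, 110 were on X, 96 on 3L, 95 on 2L, 92 on 3R, 66 on 2R and 0 on chromosome 4. X held 24.0% of distal and 19.8% of near peaks (odds ratio 1.28, 1.00 to 1.63, adjusted exact p = 0.0658), and 22.8% of distal candidates.

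The median distance to a start was 8833 bp (quartiles 6587 and 13544, largest 49815). There were 267 peaks at 5000 to 10000 bp, 134 at 10000 to 20000 bp and 58 farther out. The peaks just inside the threshold lay at 5001 bp (in tara, signal 198), 5007 bp (in Liprin-gamma, 77.3) and 5016 bp (intergenic, 214), and those just outside at 4986 bp (97.7), 4970 bp (in Gug, 167) and 4961 bp (228). The median distance between neighbouring distal summits was 99027 bp. Of 454 neighbouring pairs, 106 were under 10000 bp apart and 28 under 1000 bp. No reference spacing was computed, so these values were not tested for clustering. Overlapping records were 26, and 446 distal peaks were left when only the highest of overlapping conservative records was kept. No distal summit lay in an annotated transposable element.

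Most distal peaks were intronic. Summits fell in introns in 332 peaks (72.3%), between genes in 123 (26.8%) and in 3' UTRs in 4, while 0 fell in coding exons, which allows a share of up to 0.654%. Distal candidates outside the lists were intronic in 59.6% (odds ratio 1.77, 1.44 to 2.20, exact p = 2.13e-08) and in coding exons in 12.4% (odds ratio at most 0.0572 by its upper bound, exact p = 1.32e-26). They lay between genes in 26.0%, close to the 26.8% of distal peaks. The higher intronic share thus stood beside the absence from coding exons, and introns against intergenic sequence alone were not tested against candidates. Of 327 peaks in an intron of a protein-coding gene, 113 (34.6%) were in the first and 232 (70.9%) in the first or second. These introns had a median length of 18.4 kb (0.349 to 126). No share over distal candidates or intronic bases is given beside these counts, so they show no preference for early introns. No difference between intronic and intergenic distal peaks passed, and the intervals are wide. A peak of replicate 2 was found in 52.1% and 45.5% (odds ratio 1.30, 0.842 to 2.02), the 7 base word in 16.9% and 20.3% (0.796, 0.459 to 1.41), and none of 5 comparisons passed (adjusted exact p = 0.773 for each, exact Fisher test).

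Signal, the peak caller's value in the deposited list, was lower at distal peaks. It ran from 2.74 to 1262 with a median of 115 (quartiles 88.1 and 165), against 144 for near peaks, 160 within 500 bp of a start and 131 at 500 to 5000 bp. Above the conservative median lay 34.9% of distal and 52.8% of near peaks (odds ratio 0.479, 0.387 to 0.592, adjusted exact p = 6.54e-12). In the list of replicate 2 alone the odds ratio was 0.826 and did not pass (adjusted exact p = 0.202), and the distal and near medians there were 51.7 and 53.7, against 64.3 and 84.4 in replicate 1. Only 19 of the 300 highest conservative peaks (6.33%) and 1 of the 20 highest were distal.

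**Figure D4:**
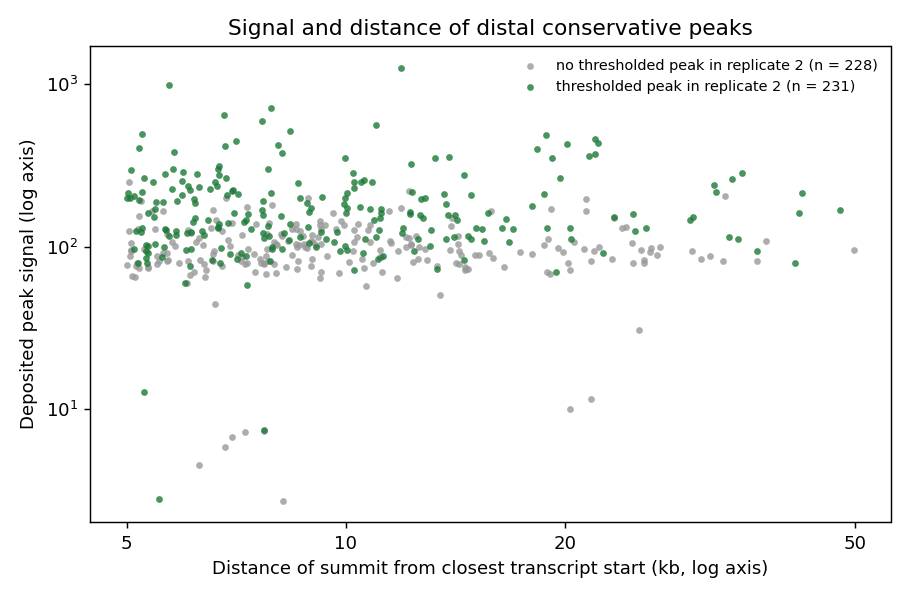
Deposited peak signal (log axis) against distance of the summit from the closest start (kb, log axis) for each of 459 distal peaks, coloured by whether a thresholded peak of replicate 2 overlapped it (231 peaks) or not (228 peaks). Of the 58 distal peaks with a signal of 223 or more, 57 had a replicate 2 peak, and the highest signal was 1262.

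Fewer distal than near peaks had a peak of replicate 2. A thresholded peak of replicate 1 overlapped 387 of the 459 (84.3%), with 86.5% over all conservative peaks and 86.9% over near ones (odds ratio 0.811, 0.612 to 1.09, adjusted exact p = 0.155). A thresholded peak of replicate 2 overlapped 231 (50.3%, interval 45.7 to 55.0%), with 65.5% over all conservative peaks and 68.3% over near ones (odds ratio 0.471, 0.383 to 0.579, adjusted exact p = 3.40e-12). Both replicates had one at 204 (44.4%), with 59.5% over all conservative peaks and 62.2% over near ones (odds ratio 0.487, adjusted exact p = 6.54e-12). Replicate 1 alone had one at 183 distal peaks, replicate 2 alone at 27 and neither at 45. The same split over all conservative peaks is not given here, so these counts show no trait particular to distal peaks. In the ranked lists, which hold weaker records too, each replicate had a record at 455 of the 459 (99.1%). Near peaks were much the same. Replicate 1 had a record at 98.0% of peaks within 500 bp and 98.5% of those at 500 to 5000 bp. Replicate 2 had one at 99.4% in both classes. Against peaks at 500 to 5000 bp, 63.8% of which had a replicate 2 peak, the odds ratio was 0.575 (adjusted exact p = 4.63e-06).

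The share with a replicate 2 peak moved with signal in both classes. Conservative peaks were split into 4 equal groups by signal. In the lowest group (2.16 to 96.1) it was 22.1% of 154 distal and 30.4% of 592 near peaks. In the second group (up to 137) it was 44.8% of 145 and 57.6% of 601, and in the third (up to 223) 73.5% of 102 and 81.4% of 644. In the highest group it was 98.3% of 58 and 98.0% of 688. The distal share was thus lower in 3 of 4 groups, with overlapping intervals in the lowest and the third, and the groups were set after the data were seen. Replicate 2 also had fewer distal records as a whole, with 23.7% of its candidates distal against 41.2% in replicate 1. The part of signal and of replicate 2's smaller distal share in this difference was not tested further, and read depth is not given for either replicate.

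**Figure D5:**
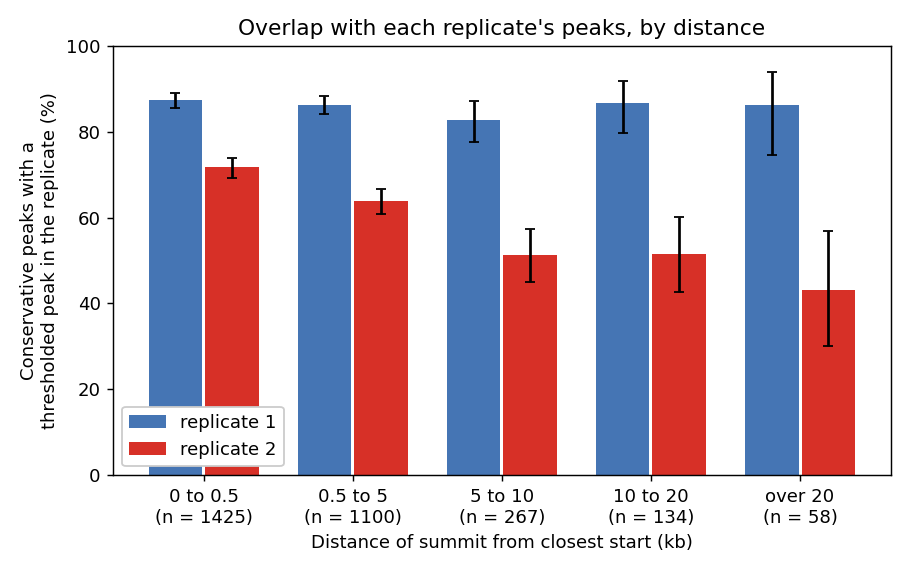
Share of conservative peaks overlapped by a thresholded peak of replicate 1 or replicate 2 (%), by distance of the summit from the closest start (kb), with exact 95% intervals. Replicate 1 stayed between 82.8 and 87.4% in all 5 classes, while replicate 2 went from 71.7% within 0.5 kb to 43.1% beyond 20 kb.

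The highest distal peak was intergenic, at 2R:13035212-13035465, 11909 bp downstream of the closest start, that of CG13323. Its signal was 1262 (rank 17 of all conservative peaks), and the peaks of the replicates there had signals of 863 (rank 21) and 398 (rank 18). The second, with a signal of 987, lay in the first intron of CG32486 (679 and 305 in the replicates), and its sequence is shown above. The third, with a signal of 712, lay in the second intron of Hr3, the nuclear receptor that acts in the ecdysone cascade, at 2R:10219947-10220192 (544 and 164), where CG12912 and CG46321 are also annotated. A pair of intergenic peaks stood close together, at 2L:1632707-1632945 (signal 644, 431 and 212 in the replicates) and 2L:1638625-1638940 (517, 426 and 94.9). All of the 15 highest distal peaks had a thresholded peak in both replicates. The others of these 15 lay in introns of Gug (590), Raf, the kinase that passes the receptor tyrosine kinase signal to MEK (492), sbb, which encodes the corepressor Scribbler (486 and 427), Hr4, another nuclear receptor of the ecdysone response (460), JIL-1, a histone H3 kinase (447), fz, the Frizzled receptor for Wnt signals and planar polarity (432) and simj (424). The last 2 were intergenic, 10979 bp from tRNA:Ile-TAT-1-2 (562) and 6832 bp from CG4702 (414).

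Several genes held more than 1 distal peak, and these counts were not set against gene length or candidates. Protein-coding genes with a distal peak had a median length of 24.4 kb and 17 distal candidates. Over all those with a distal candidate the medians were 7.38 kb and 6. Of 230 host genes, 167 had 1, 63 had 2 or more and 24 had 3 or more. With only the highest of overlapping records kept, 57 had 2 or more and 23 had 3 or more, and hth went from 5 to 4, NetA and CG31145 from 4 to 3 and hppy from 3 to 2. sbb had 8, all in its 79.1 kb gene on 2R, with signals from 75.6 to 486 and a peak of replicate 2 at 7 of them. Within sbb the order of 2 neighbouring peaks was not the same in the replicates. The peak at 2R:18338380-18338592 had signals of 336 (rank 172) and 141 (rank 251) in replicates 1 and 2, and the peak at 2R:18337094-18337301 had 98.8 (rank 1384) and 334 (rank 30). Hr4 had 6 peaks, with signals from 84.3 to 460, all 6 found in replicate 1 and 4 in replicate 2, and all 6 had CACTG near the summit while 0 had the 7 base word. kirre, an immunoglobulin adhesion protein of myoblast fusion, had 7 over 139 kb of its 394 kb gene, but their signals were 82.1 to 166 and only 1 had a replicate 2 peak.

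hth, the homeodomain partner of the Hox proteins, had 5 distal peaks with signals from 7.30 to 168, including the 2 farthest from any start, at 49815 and 47660 bp. The next farthest lay in mamo, a zinc finger gene (42296 bp, signal 213), Snoo, a Ski/Sno corepressor of the Smad pathway (41825 bp, 161), and CG43759 (41373 bp, 79.5). Snoo had 4 peaks, from 130 to 282, all with a peak in both replicates, and 2 of them had the 7 base word, 1 as the facing pair shown above. Raf had 4 within 5.88 kb, from 94.8 to 492. The adhesion gene ed, the netrin gene NetA, Drak, SKIP and CG31145 also had 4 each. With 3 each were the Hox gene Antp, whose peaks are shared with the overlapping CG46458, the BMP inhibitor sog, the receptor gene fz, the semaphorin gene Sema1a, the growth factor gene Pvf3, the nuclear receptor gene ftz-f1, and dar1, rdx, hppy, eIF5B, simj and CG43759.

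Gene lists were counted against the protein-coding genes that had at least 1 distal candidate as host or closest gene, of which 352 of 2727 (12.9%) had a distal conservative peak. Long genes offer more room, and the counted genes had a median length of 7.38 kb while those with a peak had 24.4 kb. Of 13 ecdysone response genes, 8 (61.5%) had a distal peak. They were Hr3 (712), Hr4 (460), the transporter gene E23 (227), Eip75B (150), ftz-f1 (147), Eip63E (115), Eip78C (64.7) and Eip74EF (63.7), each value being the signal of the gene's highest distal peak. These 13 genes were long, with a median of 60.7 kb, and had 16 distal peaks for 357 distal candidates, or 4.48 per 100, against 1.58 per 100 over all 2727. The peaks in Eip78C and Eip74EF had no thresholded peak in either replicate, and Eip75B and ftz-f1 had their highest peak in both.

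Of 25 genes for signalling ligands and receptors, 11 (44.0%) had a distal peak, with 3.04 peaks per 100 candidates and a median length of 21.8 kb. The highest were in fz (432) and near ptc, the Hedgehog receptor (263, intergenic), followed by N, the Notch receptor (255), and dpp, the BMP ligand (216), and all 4 had a peak in both replicates. Hox genes had 2 of 6, Antp (156) and Ubx (91.6, with no thresholded peak in either replicate). Axon guidance and adhesion genes had 10 of 39 (25.6%) with Fas3 (194) and NetA (183) highest, but 1.60 peaks per 100 candidates and a median length of 52.6 kb. Epidermal, tracheal and gut genes had 4 of 16, with the POU gene vvl (259) and the T-box gene Doc2 (235) highest. They had 3.03 peaks per 100 candidates, close to the signalling genes. The rate was 2.70 for Hox genes, 1.91 for neural transcription factors and 1.82 for segmentation genes. Segmentation genes had 3 of 13 (23.1%), the highest at inv (124) and cad (98.5), and Polycomb and Trithorax genes 2 of 9, Psc (297) and trx (185), with 1.41 peaks per 100 candidates, under the 1.58 over all genes. Neural transcription factors had 5 of 26 (19.2%), with vvl (259) and oc (166) highest, and muscle and heart genes 2 of 15 (13.3%), how (211) and Dr (107), with 0.837 per 100.

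Ion channel and synapse genes had 1 of 25, Ca-alpha1T (109), although their median length was 46.5 kb and they had 384 distal candidates, so 0.521 peaks per 100. Insulator protein, cytoplasmic ribosomal protein and glycolysis genes had 0, but only 1, 2 and 1 of them had a distal candidate at all. These counts describe lists chosen with earlier results of these data known, and no list was tested. The ranshi gene itself, at 3R:8728367-8729693 on the minus strand, had its closest distal peak 246625 bp from its start, at 3R:8482910-8483225 (signal 152, with 91.3 and 54.8 in the replicates).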

How the data were processed

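The 2 samples are biological replicates of 1 group, and no comparison between conditions exists. All 8 deposited peak lists are on dm6. Per the file headers and names they are outputs of IDR (irreproducible discovery rate), a method that keeps peaks ranked alike in repeated inputs; their aligner and peak caller: not given in the sources used here. Chromatin was sonicated to 200 to 800, per the labels. The authors deposited an IDR score (830 to 1000 in the conservative list), a signal value per peak, a −log10 q-value and a summit offset in bp. Signal is not scaled between lists, so it was compared within a list only. Read depth is unknown, and 16 columns of values per input in the ranked lists of the whole series were not used.

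Summits were the start plus the offset. Starts and features came from Ensembl release 115 gene models, without pseudogenes and transposons, and bases were read from the RefSeq assembly for dm6. A peak overlapped a replicate's peak from 1 bp. Shares were compared by 2-sided exact Fisher tests over peaks with Benjamini-Hochberg adjustment and a threshold of 0.05, and intervals are exact (Clopper-Pearson) at 95%. Limits for a count of 0 use 3 counts. Words of 9 bases were tested where at least 20 windows held them. Named peaks are the 15 highest, the 5 farthest, the 3 on each side of the threshold, hosts with 3 or more, up to 2 per gene list and the one closest to ranshi; further genes in a list were named after their values were seen. The members, the gene lists and the motif panel were chosen with earlier results of these data known. Gene names were matched through older symbols where needed, and 2 were not matched. The tests were tested on simulated data. Python 3.11.15, numpy 2.4.6, scipy 1.17.1 and pandas 2.3.3 were used.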

Additional observations from a re-analysis of the deposited data

How the results depend on the processing

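No paired analysis was possible because there is only 1 group. Values are odds ratios unless stated. The lower share of distal peaks kept its direction and passed at 3000 and 10000 bp, with other start sets, against bases and in the larger list, and without either replicate (0.314 to 0.405). The lower overlap with replicate 2 also kept its direction at those distances, with an overlap of 50% of the shorter peak and, as alternatives chosen after seeing the data, with only the highest of overlapping peaks. It was 0.680 (adjusted exact p = 0.519) with the ranked candidates of that replicate, where nearly every peak has a record, and the overlap with replicate 1 and with both replicates reversed there to 2.06 and 1.35, neither past the threshold. The signal comparison was 0.475 to 0.826 without either replicate, and did not pass without replicate 1. G+C below the median was 0.828 in windows of 100 bp to each side, 1.45 in the larger list (adjusted exact p = 9.97e-07) and 0.913 to 1.28 without either replicate, so its direction depends on the setting. The X share passed in the larger list (1.21, adjusted exact p = 0.0485). CACTG, distal against near, was 0.893 within 50 bp of the summit, 1.22 against peaks at 500 to 5000 bp (chosen after seeing the data) and 1.14 to 1.47 without either replicate. The 7 base word kept its direction and passed in every alternative run, from 1.58 to 2.33. Of the 20 leading words 6 passed within 50 bp. Of the 20 motifs, 2 were more and 1 less frequent in windows of 150 bp to each side, 1 to 4 more and 0 to 6 less without either replicate. Odds ratios that reversed were GAGA (1.15), Zeste (1.29), CTCF (1.11) and the homeodomain core (0.919) in windows of 150 bp to each side, and Pleiohomeotic without either replicate (0.587 to 1.12). The cause of these changes was not tested. Read depth is not given, so the limit it sets is unknown.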
